A study of Mus musculus with 2 samples.

Results

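The genes described here mostly encode the protein machinery of pre-mRNA splicing, and all are called splicing genes below. They were chosen by symbol alone, as the rows whose symbols begin with Srsf and a digit, Hnrnp, Sf3a, Sf3b, Snrp, Prpf, U2af, or Lsm and a digit. This rule found 81 genes among the 23282 rows of the table: 11 SR proteins, 20 hnRNPs and 50 proteins of the small nuclear ribonucleoproteins (snRNPs) or their partners. The last group also takes in Lsm1, Lsm10, Lsm11, Lsm12, Lsm14a and Lsm14b, which, as described below, are not known chiefly as spliceosomal proteins. They are kept in its counts. Naïve CD4+ T cells from spleens of wild-type C57BL/6 mice (7 to 10 weeks old) were activated with anti-CD3ε and anti-CD28 and kept for 1 day with TGF-β1, IL-2 and antibodies against IL-4 and IFN-γ. These conditions induce regulatory T (Treg) cells, and both cultures shared them. The control culture received DMSO, the solvent, and the other received 10 μM Tubastatin A, an inhibitor of the cytoplasmic deacetylase HDAC6. It is abbreviated TSA here and is not trichostatin A. There was 1 library for each treatment, so no difference below has a replicate check, and no p-value can be given for the treatment.

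Splicing removes introns from nuclear pre-mRNA and is carried out by the spliceosome, which assembles anew on each intron. U1 recognises the start of the intron, U2AF and then U2 recognise its end and branch point, and the U4/U6.U5 tri-snRNP completes the machine. SR proteins mostly bind exons and favour their inclusion, and hnRNPs coat pre-mRNA and often oppose it. T cells use the balance between them when they are activated: hnRNPLL, for example, drives the skipping of exons of Ptprc, the gene of the surface phosphatase CD45. The libraries counted here were made to read the ends of transcripts next to the poly(A) tail, so they estimate the amount of each factor's mRNA. They say nothing about which exons were used.

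The deposited values were read as log2 of a normalized count plus 1. On this reading a single read stood for 1.005 normalized counts in the control and 0.9951 in the TSA library. Taken back to reads, the libraries held 10846166 and 10432628 reads, of which the ribosomal RNA precursor Rn45s took 8.72% and 9.63%. All 9 markers of CD4 T cells had at least 602 reads in each library. The 4 B cell markers together had 12 and 15 reads, the 5 myeloid markers 28 and 25, the 2 natural killer cell markers 0 and 1, the 2 CD8 T cell markers 80 and 87, and the 2 erythroid markers 32 and 45. Of 12 genes of cycling cells, 11 (91.7%) were lower in the TSA library beyond counting error, a call defined below. By that call 28.0% of all genes tested were lower, and 54.9% of those averaging at least 1000 normalized counts. The median log2 change (TSA minus control) of the 12 genes was -0.81. The proliferation marker Mki67 went from 1871 to 650 normalized counts. Foxp3, the factor that defines Treg cells, went from 1641 to 960 normalized counts. Whether the number of cycling cells has a part in the values below was not tested, and in a bulk library fewer cells of a type and less RNA per cell cannot be told apart.

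Most splicing genes were slightly lower in TSA-treated than in control Treg cells. Of the 81 genes, 79 had at least 10 reads in at least 1 library and were tested. Of these, 67 had a lower value in the TSA library. The same held for 5910 of all 12164 genes tested, and for 1507 of the 2171 that averaged at least 1000 normalized counts. The 67 include 10 genes, named below, whose direction depended on the scaling. The median log2 change of the 79 was -0.22, with quartiles at -0.34 and -0.075, whereas the median of all 12164 genes tested was 0.015. For 54 of the 79 the whole 95% interval of the fold lay below no change, which is called lower beyond counting error here, and for 6 it lay above (Prpf40b, Prpf8, Snrpg, Sf3b1, Sf3b5 and Sf3b6). Among all genes tested, 28.0% were lower and 28.1% were higher by that rule. The interval (exact, Clopper-Pearson) was computed from the reads of both libraries, so it carries counting error alone and sets library against library, not treatment against treatment. Together the 81 genes took 2.405% of the control reads other than Rn45s (Wilson 95% interval 2.395 to 2.414) and 2.198% of the TSA reads (2.188 to 2.207).

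**Figure D1:**
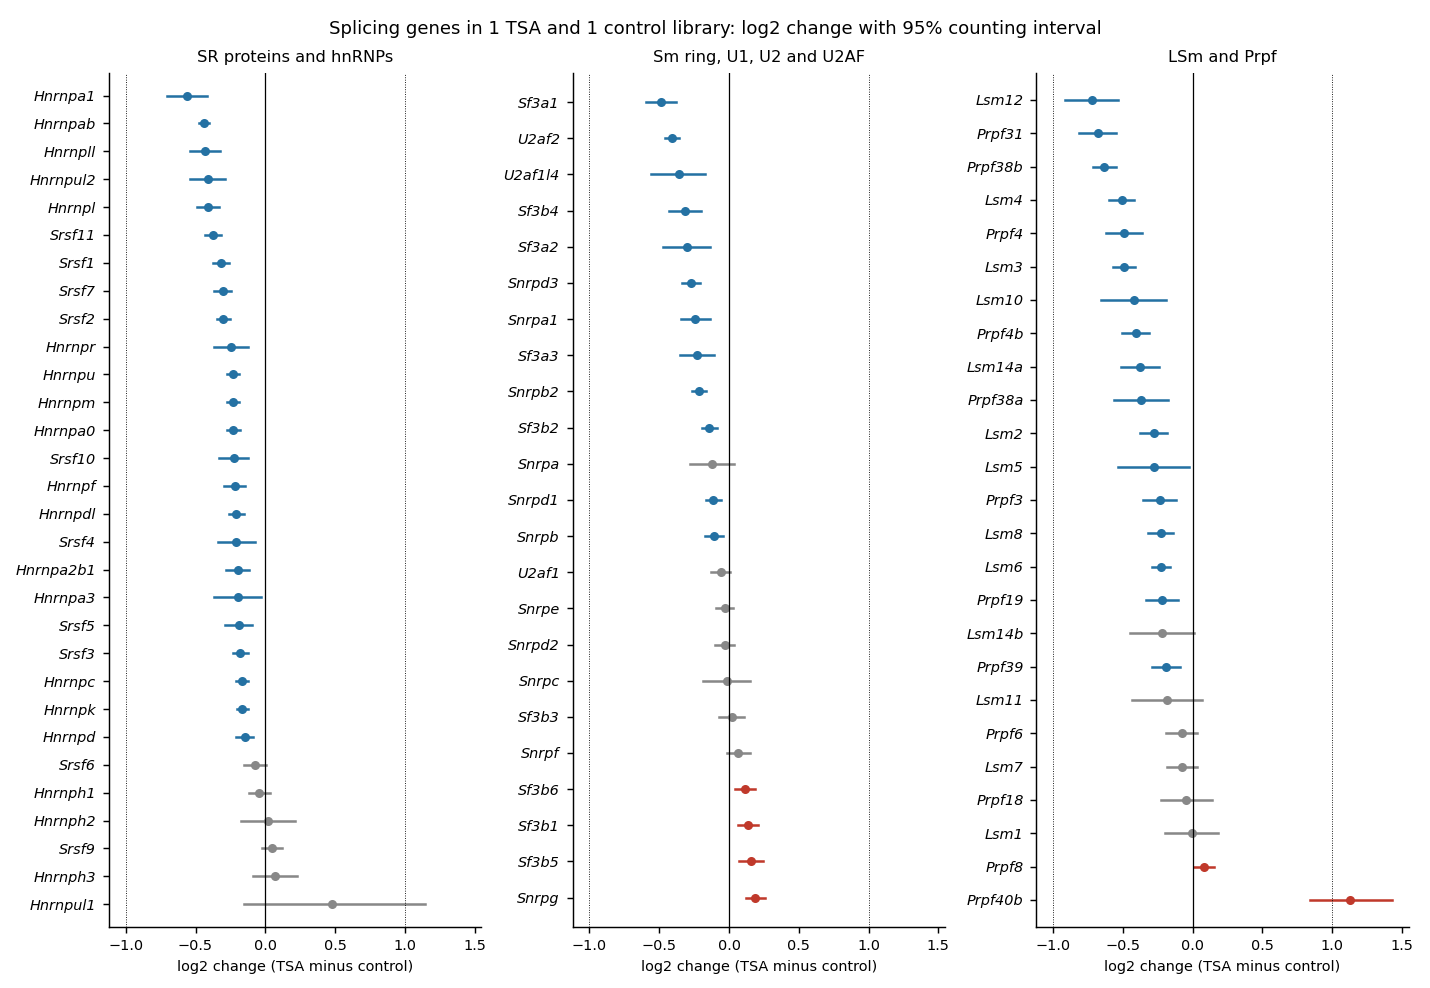
Log2 change (x axis, TSA minus control) of the splicing genes tested and reported here, 1 row a gene, with the 95% counting interval as a line and dotted lines at 2-fold. Blue marks genes lower and red genes higher beyond counting error, and grey marks the others. Most points lie left of 0, and only Prpf40b lies past 2-fold.

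Part of this shift was shared by other abundant genes. Of the 79 splicing genes, 58 averaged at least 1000 normalized counts over both libraries, and 43 of these were lower and 5 higher beyond counting error. Of all 2171 genes at that level, 54.9% were lower and 20.7% were higher, and their median log2 change was -0.12, beside -0.22 for the splicing genes. The direction of the background also depended on the scaling. When both libraries were scaled by their total reads in place of the deposited scaling, 21.6% of all genes were lower and 33.7% higher beyond counting error. Of the 79 splicing genes, 50 were then lower and 9 higher. Between these scalings 7 splicing genes crossed the counting interval: Snrpb, Snrpd1, Hnrnpa3 and Lsm5 were no longer lower beyond it, and Snrpf, Srsf9 and Sf3b3 became higher. No splicing gene that was lower or higher beyond counting error changed direction under any scaling tried. The direction did depend on the scaling for 10 other tested genes, Srsf6, Hnrnph1, U2af1, Snrpc, Snrpd2, Snrpe, Lsm1, Lsm7, Prpf6 and Prpf18. No direction is given for any of them by name, although all were counted above among the genes with a lower value.

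**Figure D2:**
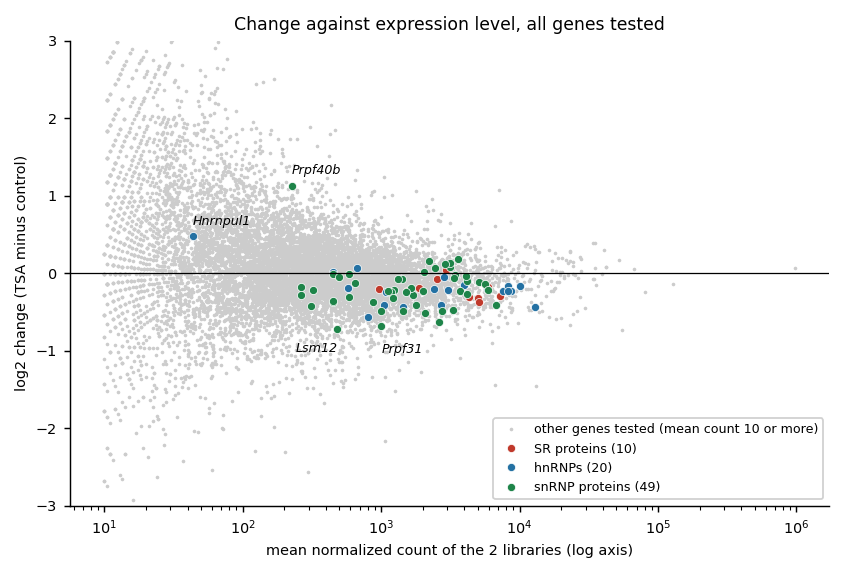
Log2 change (y axis, TSA minus control, drawn from -3 to 3) against the mean normalized count of both libraries (x axis, log scale) for all genes tested with a mean of at least 10 (grey) and for SR proteins (red), hnRNPs (blue) and snRNP proteins (green). The splicing genes sit among the abundant genes, most of them below 0, with Prpf40b and Hnrnpul1 as the 2 genes highest above 0.

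Few splicing genes passed the larger thresholds, and the same held for other genes of like level. A single splicing gene passed 2-fold, and it was higher in the TSA library, whereas 14.7% of all genes tested passed 2-fold, 11.5% higher and 3.15% lower. Most of those had low counts: among genes averaging at least 1000 normalized counts 0.783% passed 2-fold, and of the 58 splicing genes at that level 0 did. At a threshold of 1.5-fold, 3 splicing genes were lower, beside 8.34% of all genes tested. At the higher level this was 2 of the 58 splicing genes, beside 3.78% of all genes. These 3 were Lsm12, Prpf31 and Prpf38b, and the gene past 2-fold was Prpf40b.

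The 3 classes moved by nearly the same amount. The median log2 change was -0.22 for the 10 SR proteins tested, -0.21 for the 20 hnRNPs and -0.22 for the 49 snRNP proteins. Scaled by total reads without Rn45s, these medians were -0.132, -0.129 and -0.136. They differed in how evenly their genes moved. The quartiles of the log2 change were -0.304 and -0.182 for SR proteins and -0.284 and -0.161 for hnRNPs. For snRNP proteins they were -0.368 and -0.046. Of the SR proteins 8 were lower and none was higher beyond counting error, of the hnRNPs 16 were lower and none was higher, and of the snRNP proteins 30 were lower and 6 higher. Scaled by total reads, 1 SR protein was higher. Of all genes tested, 28.0% were lower and 28.1% higher. Among genes averaging at least 1000 normalized counts, 77.8% of SR proteins, 93.3% of hnRNPs and 64.7% of snRNP proteins were lower, beside 54.9% of all genes. At that level 20.7% of all genes were higher. Summed over the class, the fold (TSA over control) was 0.847 (95% interval 0.835 to 0.859) for SR proteins, 0.844 (0.836 to 0.852) for hnRNPs and 0.882 (0.875 to 0.89) for snRNP proteins, beside 0.928 for all genes other than Rn45s averaging at least 1000 normalized counts (0.942 with Rn45s). With 1 library per treatment, differences between the classes could not be tested against replicate error.

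**Figure D3:**
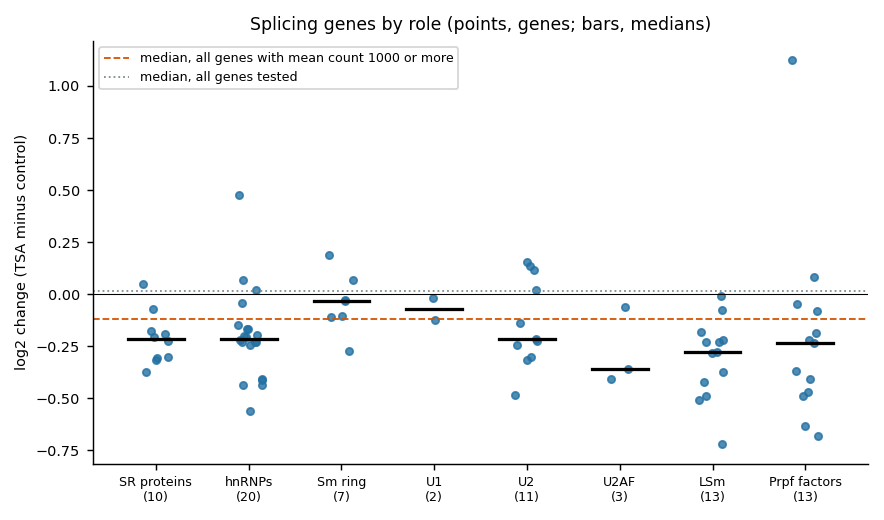
Log2 change (y axis, TSA minus control) of the splicing genes tested, grouped by role (x axis, with the number of genes), where each point is a gene and each black bar a median. The dotted line is the median of all genes tested and the dashed line that of genes averaging at least 1000 normalized counts. The medians of SR proteins, hnRNPs, U2, U2AF, LSm and Prpf lie below the dashed line, and those of the Sm ring and U1 lie above it.

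To show the control regions of the genes on which these results turn, promoter sequence was taken from RefSeq on GRCm38.p6, where 69 of the 81 genes had an entry running from 250 bases before the transcription start to 50 after it. The 120 bases just before the RefSeq start are printed for Prpf40b, the gene past 2-fold, for Prpf38b and Prpf31, 2 of the genes with the lowest log2 change, for Sf3a1 and Sf3b1, partners in U2 that moved in opposite directions, and for Srsf2 and Hnrnpab, the most abundant SR protein and hnRNP mRNA. RefSeq and the GENCODE annotation used for gene positions here place some starts differently: the RefSeq start of Prpf40b lies 154 bases inside the GENCODE gene, so that its printed bases fall within that gene, that of Hnrnpab lies 34 bases before the GENCODE gene, and the other starts differ by at most 4 bases. Each is written 5′ to 3′ on the gene's own strand, and capitals mark matches, on either strand, to the letters searched. The GC box was searched as GGGCGG, the box named for its letters as CCAAT, the TATA box as TATAAA, the E-box as CACGTG, and the binding motif of ETS factors as CCGGAAG.
Prpf40b (chr15:99295121-99295240, plus strand): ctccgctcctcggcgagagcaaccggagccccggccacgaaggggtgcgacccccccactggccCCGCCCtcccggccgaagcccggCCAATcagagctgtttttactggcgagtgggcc
Prpf38b (chr3:108911730-108911849, minus strand): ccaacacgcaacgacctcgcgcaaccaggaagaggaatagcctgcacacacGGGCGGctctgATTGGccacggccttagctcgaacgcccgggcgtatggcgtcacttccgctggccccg
Prpf31 (chr7:3629865-3629984, plus strand): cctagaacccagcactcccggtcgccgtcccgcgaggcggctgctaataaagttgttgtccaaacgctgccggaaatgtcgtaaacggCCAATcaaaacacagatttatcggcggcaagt
Sf3a1 (chr11:4160234-4160353, plus strand): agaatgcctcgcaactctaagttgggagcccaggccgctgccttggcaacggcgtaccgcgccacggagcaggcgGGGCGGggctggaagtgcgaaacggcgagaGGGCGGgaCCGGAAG
Sf3b1 (chr1:55027479-55027598, minus strand): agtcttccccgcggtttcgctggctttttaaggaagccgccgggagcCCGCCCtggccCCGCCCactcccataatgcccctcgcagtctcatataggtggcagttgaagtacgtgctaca
Srsf2 (chr11:116853095-116853214, minus strand): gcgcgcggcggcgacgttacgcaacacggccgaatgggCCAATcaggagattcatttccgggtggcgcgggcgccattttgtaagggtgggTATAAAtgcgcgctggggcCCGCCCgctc
Hnrnpab (chr11:51606882-51607001, minus strand): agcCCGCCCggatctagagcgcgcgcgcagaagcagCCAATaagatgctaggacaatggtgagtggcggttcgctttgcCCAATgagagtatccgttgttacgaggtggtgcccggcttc

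Over the whole 300 bases, with 1 promoter taken for each gene, 69.6% of the 69 splicing genes held a GC box, 49.3% a CCAAT box, 29.0% the ETS motif, 11.6% the E-box and 8.7% the TATA box. The same shares were 64.4%, 39.2%, 19.2%, 10.6% and 6.86% among 9196 promoters of genes tested, and 35.9%, 38.0%, 9.14%, 7.24% and 14.2% among all 27025 promoters. In the GC box, E-box and TATA box the splicing genes thus looked more like other genes read in these cells than like promoters in general. The same held for GC content, at 61.3% beside 60.8% and 53.6%. The CCAAT box and the ETS motif were each more frequent in the splicing genes than in either set, and the CCAAT box hardly differed between those sets. A match to such short letters is a description of the sequence and does not show that a factor binds there.

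SR proteins carry RNA recognition motifs and a tail rich in arginine and serine. Srsf2, which binds exonic enhancers and is the most abundant of them here, had 7973 normalized counts in the control and 6476 in the TSA library. Srsf1, the founding member of the family, went from 5587 to 4484 normalized counts, a fold of 0.803 (95% interval 0.772 to 0.835). Srsf7 went from 4780 to 3869 and Srsf11 from 5772 to 4450 normalized counts, and both were lower beyond counting error. Srsf11 had the lowest log2 change of the class, -0.375 with a fold of 0.771 (0.741 to 0.802). Srsf3, which also takes part in mRNA export, went from 6233 to 5510 normalized counts, a smaller change of -0.18 on the log2 scale. Srsf4, Srsf5 and Srsf10 were lower by -0.19 to -0.23. The intervals of Srsf6 (2584 and 2457 normalized counts) and Srsf9 (2889 and 2985) included no change. The class therefore spanned log2 changes from -0.375 to 0.047, with 7 of the 8 lower genes between -0.18 and -0.32. Srsf12 had 1 read in the control and 4 in the TSA library and was not tested, and its fold of 2.48 has an interval from 0.392 to 195.

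The hnRNPs are a looser family of abundant nuclear RNA-binding proteins. Hnrnpab had the highest count of all 81 genes in both libraries, with 14909 normalized counts in the control and 11005 in the TSA library, a fold of 0.738 (0.72 to 0.757). Hnrnpa1, which antagonises SR proteins at many splice sites, had the lowest log2 change of the class, -0.56, from 954 to 647 normalized counts (fold 0.678, 0.612 to 0.749). Its relatives moved less. Hnrnpa2b1 went from 2582 to 2249, Hnrnpa0 from 8254 to 7047 and Hnrnpa3 from 617 to 538 normalized counts, with log2 changes of -0.20, -0.23 and -0.20. Hnrnpl and Hnrnpll, the pair known to act on the Ptprc exons, had nearly the same change. Hnrnpl went from 3069 to 2311 normalized counts (fold 0.753, 0.713 to 0.795) and Hnrnpll from 1664 to 1231 (fold 0.74, 0.687 to 0.797).

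The most abundant hnRNPs after Hnrnpab were lower by small and similar amounts. Hnrnpk, a poly(C)-binding protein, went from 10674 to 9521 normalized counts, Hnrnpm from 9325 to 7956, Hnrnpu, a nuclear scaffold protein, from 8926 to 7605, and Hnrnpc, which binds uridine tracts, from 8670 to 7728. Their log2 changes lay between -0.23 and -0.17. Hnrnpd and Hnrnpdl are neighbours on the minus strand of chromosome 5 (Hnrnpd at 99955935 to 99978938, Hnrnpdl at 100033577 to 100039664) and had log2 changes of -0.15 and -0.21. The H subfamily was mixed. The intervals of Hnrnph1 (2869 and 2783 normalized counts), Hnrnph2 (445 and 452) and Hnrnph3 (655 and 688) all included no change, while their relative Hnrnpf went from 3253 to 2793, a fold of 0.859 (0.816 to 0.903). Compared within the libraries, which removes the scaling, the fold of Hnrnph1 was 1.31 times that of Hnrnpab (95% interval 1.24 to 1.39). Hnrnpr went from 1174 to 992 normalized counts, a fold of 0.845 (0.775 to 0.92). Hnrnpul2 went from 1197 to 899 normalized counts, whereas its paralogue Hnrnpul1 had 36 and 51 reads, too few to tell its fold of 1.39 (0.898 to 2.21) from no change.

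The snRNP proteins were the least even class, and their particles differed. The Sm proteins form a ring around the U1, U2, U4 and U5 snRNAs, and the related LSm2 to LSm8 proteins form a ring around U6. The 7 tested Sm genes had a median log2 change of -0.032, with 3 lower and 1 higher beyond counting error, and a summed fold of 0.961 (0.945 to 0.978), or 1.01 when scaled by total reads, which left 1 lower and 2 higher. The 7 LSm2 to LSm8 genes had a median of -0.28, with 6 lower and none higher, and a summed fold of 0.804 (0.786 to 0.824), or 0.845 when scaled by total reads. The lower shares were 42.9% for the Sm ring and 85.7% for LSm2 to LSm8, beside 28.0% of all genes tested. Of all genes averaging at least 1000 normalized counts, 54.9% were lower and 20.7% higher, so the Sm ring lay near that background. The fold of the Sm ring was 1.2 times that of the LSm ring (1.16 to 1.23), a ratio that does not depend on the scaling. This pair and the other pairs whose folds are set against each other here were chosen after their values were seen.

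Within the Sm ring, Snrpd3 and Snrpg moved apart. Snrpd3 went from 4572 to 3784 normalized counts, a fold of 0.828 (0.792 to 0.864), and Snrpg from 3384 to 3858, a fold of 1.14 (1.09 to 1.19). Snrpb and Snrpd1 had log2 changes of -0.11 each, lower beyond counting error under the authors' scaling but not when scaled by total reads. The intervals of Snrpd2 and Snrpe included no change, as did that of Snrpf, which lay above no change when scaled by total reads. Snrpn, which encodes an Sm protein of neurons and comes from an imprinted locus, had 5 reads in each library and was not tested. In the LSm ring, Lsm3 went from 3244 to 2308 normalized counts (fold 0.712, 0.674 to 0.751), Lsm4 from 2441 to 1714 (0.702, 0.66 to 0.747) and Lsm6, the most abundant, from 4019 to 3431 (0.854, 0.816 to 0.894). Lsm2 (1864 and 1534 normalized counts) and Lsm5 (291 and 240) had log2 changes of -0.28 each, and the interval of Lsm5 reached no change when scaled by total reads. Lsm7 (1441 and 1366 normalized counts) was the member of the ring whose interval included no change. Lsm1, which replaces Lsm8 in the cytoplasmic ring of mRNA decay, had 450 and 448 normalized counts, beside 2170 and 1851 for Lsm8. Lsm12, whose symbol fits the rule although it is not known as a spliceosomal protein, had the lowest log2 change of all 79 genes, -0.72, from 603 to 365 normalized counts (fold 0.606, 0.53 to 0.691). Of the Lsm10 and Lsm11 genes, whose proteins belong to the U7 snRNP of histone mRNA processing, Lsm10 went from 355 to 265 normalized counts (fold 0.747, 0.634 to 0.877), and the interval of Lsm11 (281 and 248) included no change. Lsm14a, which belongs to cytoplasmic mRNA granules, went from 994 to 765 normalized counts (fold 0.771, 0.7 to 0.847), and the interval of its paralogue Lsm14b (347 and 298) reached no change.

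**Figure D4:**
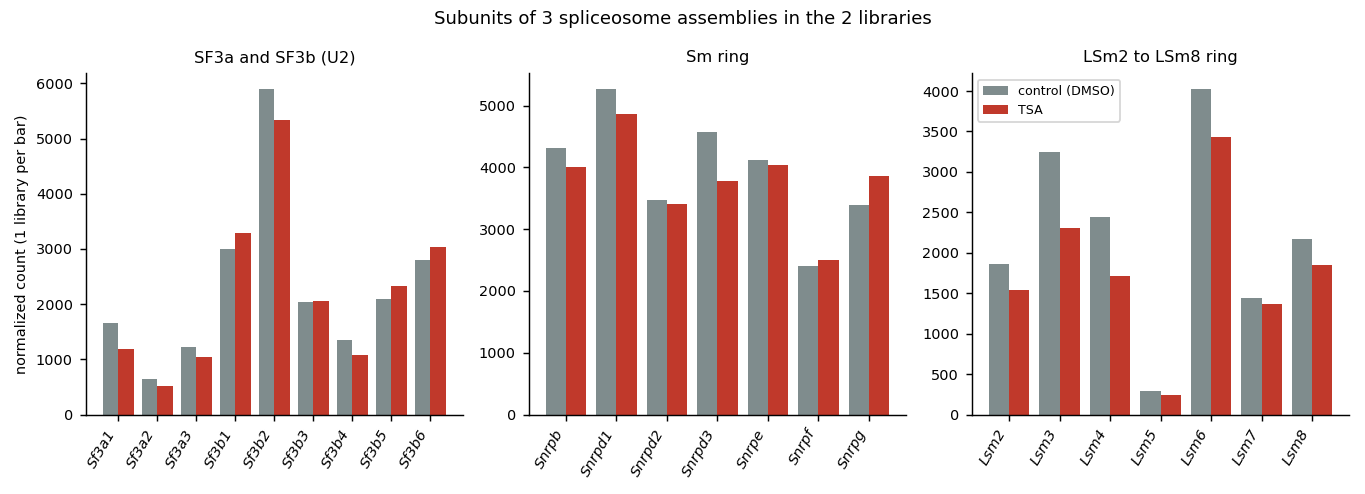
Normalized counts (y axis, 1 library per bar, starting at 0) of the SF3a and SF3b subunits, the Sm ring and the LSm2 to LSm8 ring in the control (grey) and TSA (red) libraries. All 3 SF3a genes and all LSm genes drawn other than Lsm7 are lower with TSA beyond counting error, as are Sf3b2, Sf3b4, Snrpb, Snrpd1 and Snrpd3. Sf3b1, Sf3b5, Sf3b6 and Snrpg are higher beyond counting error.

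U2 binds the branch point of the intron through its subcomplexes SF3a and SF3b, and these did not move together. All 3 SF3a genes were lower beyond counting error. Sf3a1 went from 1666 to 1189 normalized counts, Sf3a2 from 646 to 524 and Sf3a3 from 1218 to 1040.2. Of the 6 SF3b genes, 3 were higher, 2 were lower and 1 was within counting error. Sf3b1, which encodes the large subunit that holds the branch point, went from 2993 to 3285 normalized counts, a fold of 1.1 (1.04 to 1.15). Sf3b5 went from 2089 to 2327, a fold of 1.11 (1.05 to 1.18), and Sf3b6, which contacts the branch adenosine, from 2801 to 3031, a fold of 1.08 (1.03 to 1.14). Sf3b2 (5889 and 5344) and Sf3b4 (1352 and 1086) were lower beyond counting error, and Sf3b3 had 2033 and 2061. Summed, SF3a had a fold of 0.78 (0.741 to 0.82) and SF3b of 0.999 (0.978 to 1.02), or 0.819 and 1.05 when scaled by total reads, so the fold of SF3b was 1.28 times that of SF3a (1.21 to 1.35). For Sf3b1 against Sf3a1 alone the ratio was 1.54 (1.4 to 1.68). The other U2 proteins, Snrpa1 and Snrpb2, were lower by -0.24 and -0.22 on the log2 scale, and the intervals of the U1 genes Snrpa (679 and 624 normalized counts) and Snrpc (588 and 581) included no change.

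U2AF is a dimer that reads the end of the intron before U2 arrives, its large subunit binding the polypyrimidine tract and its small subunit the terminal AG. U2af2, the large subunit, went from 7653 to 5776 normalized counts, a fold of 0.755 (0.729 to 0.781). U2af1, the small subunit, had 3460 and 3317 normalized counts, a fold of 0.959 (0.914 to 1.01) whose interval included no change. The fold of U2af1 was 1.27 times that of U2af2 (1.2 to 1.35). Counts of U2af1 are uncertain, however, because 70.5% of the 75-base windows at its transcript ends also occur in transcripts of other genes. U2af1l4, a relative of the small subunit, went from 506 to 394 normalized counts, and 60.2% of its windows are shared with an overlapping gene model.

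The Prpf genes, named after yeast mutants in pre-mRNA processing, spanned the widest range, from -0.681 to 1.125 on the log2 scale. Its upper end rests on Prpf40b alone, and the next highest was Prpf8 at 0.082. Beyond counting error 9 of 13 were lower and 2 higher. This lower share of 69.2% stands beside 28.0% of all genes tested and 54.9% of those averaging at least 1000 normalized counts. Prpf31, which bridges U4/U6 and U5 and is known for mutations in retinitis pigmentosa, went from 1237 to 771 normalized counts, a fold of 0.624 (0.569 to 0.683). Prpf4 went from 1160 to 825 (reads 1154 and 829, fold 0.712, 0.65 to 0.778) and Prpf3 from 1270.2 to 1078 (fold 0.848, 0.782 to 0.921). Prpf8, the large U5 scaffold at the catalytic centre, went from 3077 to 3258 normalized counts, a fold of 1.06 (1.01 to 1.11), and the interval of Prpf6 (1372 and 1298) included no change. The genes of other U5 proteins, which lie outside the symbol rule, were Snrnp200 (fold 0.846, 0.791 to 0.904), Eftud2 (0.846, 0.788 to 0.907), Txnl4a (0.913, 0.856 to 0.973), Snrnp40 (0.981, 0.919 to 1.05) and Ddx23 (0.532, 0.319 to 0.842, from 53 and 28 reads). The fold of Prpf8 was 1.7 times that of Prpf31 (1.53 to 1.88). Prpf19, the ubiquitin ligase of the complex that activates the spliceosome, went from 1329 to 1141 normalized counts, and the kinase gene Prpf4b from 2039.9 to 1538. Prpf38b went from 3197 to 2061 (fold 0.645, 0.61 to 0.682) and its relative Prpf38a from 507 to 393. Prpf39 went from 1752 to 1537 normalized counts, and the interval of Prpf18 (503 and 487), a factor of the second step of splicing, included no change.

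Prpf40b, which encodes a protein associated with U1, had the highest log2 change of the 79 genes. It lies on chromosome 15 from 99295087 to 99317018, and it had 142 reads in the control and 314 in the TSA library. This is 143 and 312 normalized counts and a fold of 2.18 (1.79 to 2.69), so that its interval reaches below 2-fold. It was also among the less abundant of the splicing genes in both libraries.

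Reads of some members could not be assigned with certainty, since the counting rules for reads with several matches are not given in the sources used here. In the GENCODE M21 annotation of GRCm38, the assembly that mm10 names, all 81 symbols were found. For 9 genes more than 10% of the 75-base windows in the last 500 bases of their transcripts also occurred in another gene's transcripts, mostly unnamed gene models: Hnrnpa3, Hnrnpf, Hnrnpk, Lsm3, Lsm5, Lsm7, Snrpc, U2af1 and U2af1l4. Another annotated gene overlapped the last 500 bases of 12 genes, on the opposite strand for 8 of them, among them Srsf2 (with Mettl23), Hnrnpab (Phykpl), Hnrnpu (Cox20), Snrpf (Ccdc38) and Prpf31 (Gm15927). Whether the authors' counting used the strand is not stated.

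Genes of 3 other large machines of gene expression were counted for comparison, and they differed among themselves. The 60 tested translation initiation and elongation factors had a median log2 change of -0.18, with 41 lower and 7 higher beyond counting error, and the 77 mitochondrial ribosomal proteins had a median of -0.18, with 46 lower and 10 higher. For the 43 tested genes of RNA polymerase II and Mediator the median was -0.074, with 15 lower and 8 higher. The lower share was thus 68.3% for translation factors, 59.7% for mitochondrial ribosomal proteins and 34.9% for RNA polymerase II and Mediator, beside 28.0% of all genes tested, 36.5% of those averaging at least 100 normalized counts and 54.9% of those averaging at least 1000. The median of the splicing genes, -0.22, was below all 3, but no test of these differences is possible with 1 library per treatment, and nothing here sets the splicing genes apart from the translation factors. Myc, a transcription factor of growing T cells, went from 1319 to 1164 normalized counts, a fold of 0.883 (0.815 to 0.956).

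Splicing genes that the symbol rule leaves out were also counted. In a list of 117 further symbols, 113 genes were tested, and their median log2 change was -0.205, with 74 lower and 4 higher beyond counting error, beside 28.0% and 28.1% of all genes tested. The list is an abundant one, with a median level of 1283 normalized counts, and its lower share of 65.5% stands beside 54.9% of all genes averaging at least 1000. The 4 higher genes were Srpk2, Zrsr1, Gemin8 and Rbfox2, the last with 2 and 20 reads. Lower beyond counting error were 20 of 27 other snRNP and early-complex proteins, 15 of 24 helicases and Prp19-complex proteins, 7 of 8 exon junction proteins, 5 of 12 SR-related proteins and their kinases, 17 of 29 other regulators, and 10 of 13 proteins of snRNP assembly. The lists were uneven, with median log2 changes from -0.242 for the other snRNP and early-complex proteins to -0.127 for the SR-related proteins and kinases, the latter near the -0.12 of all genes averaging at least 1000 normalized counts. Among those averaging at least 100 normalized counts, the lowest log2 changes were those of the helicase gene Ddx41, at -0.76 (642 and 378 normalized counts), Zrsr2, which reads the end of minor introns, at -0.68 (1600.3 and 996), the helicase gene Dhx8, at -0.64 (982 and 628), and Coil, the scaffold of Cajal bodies, at -0.605 (220.01 and 144). At the other end stood Srpk2, a kinase of SR proteins, which went from 912 to 1181 normalized counts, a fold of 1.295 (1.19 to 1.41), while its paralogue Srpk1 went from 1656 to 1107, a fold of 0.669 (0.62 to 0.723). Zrsr1, a paralogue of Zrsr2, went from 230.2 to 285 normalized counts, a fold of 1.24 (1.04 to 1.48). The intervals of Rbm5 (680.2 and 752) and Ctnnbl1 (807 and 884) included no change. Phf5a, a subunit of SF3b that the rule misses, had 2968 and 2926 normalized counts, near the summed fold of the other SF3b genes.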

How the data were processed

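Total RNA from 1 DMSO and 1 TSA culture was made into QuantSeq libraries by the authors, read as single-end 75-base reads and analysed with ExDEGA. The submitters' processing notes name Bowtie2, bedtools and the build mm10, and the annotation, counting rules and scaling are not given in the sources used here. The deposited values were read as log2 of a normalized count plus 1 (pseudocount 1), with 1 factor per library. This reading was inferred from the values and is not stated by the authors.

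Values were taken out of the log2 scale and divided by the step of low values to recover reads. For 1 to 300 reads, 100.0% of control values and 99.9% of TSA values came out whole to within 0.1 reads. Values are given to 3 decimals, so large read numbers are approximate. In 1940 rows, 0 reads in the control library was listed just above 0, which 1 factor per library alone would not give. The log2 change is the TSA value minus the control value. A gene was tested when either library held 10 or more of its reads (12164 genes). Intervals are exact Clopper-Pearson intervals, Wilson intervals for shares, and exact conditional intervals for ratios of 2 folds, at 95%. They cover counting error only, since reads without molecular identifiers are not independent molecules. No test of the treatment was possible.

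The members and lists were chosen with earlier results of these data known. Within each class the genes named by rule are, averaging 100 or more normalized counts, the 4 lowest and 4 highest log2 changes, a fixed set of well-known factors, and any gene past 2-fold. The same 4 and 4 were named in the list of other splicing genes. A single member is not reported here by name, although it stays in the counts and sums. Other members are named to account for their group, and Srpk1, Phf5a, Snrnp200, Eftud2, Txnl4a, Snrnp40, Ddx23 and the partner ratios were chosen after their values were seen. Alternatives were 5 scalings, pseudocounts of 0.1 and 5, 3 filters on low counts, a further filter (a mean of at least 1000) added after the data were seen, a 1.5-fold threshold and the whole interval beyond 2-fold. The steps were tested on simulated data. Versions were scipy 1.17.1, numpy 2.4.6, pandas 2.3.3, matplotlib 3.10.9 and Python 3.11.15.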

Additional observations from a re-analysis of the deposited data

How the results depend on the processing

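No paired analysis was possible because each treatment had a single library, which also leaves no replicate to omit. Medians of the members and of the 3 classes stayed below 0 under every scaling, pseudocount and filter tried. The median log2 change of all members ranged from -0.222 to -0.136 over the scalings. That of hnRNPs was -0.143 when scaled by total reads and -0.129 when scaled by total reads without Rn45s, in place of -0.214. The counts of members lower or higher beyond counting error stayed within 1.5 times the reported ones. The count of members past 2-fold, 1 as reported, was 2 with no filter on low counts, which adds Srsf12 at 1 and 4 reads, 4 with a threshold of 1.5-fold, and 0 when the whole interval had to lie beyond 2-fold.

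The 40 genes named by rule gave 280 alternative values. Of these, 32 moved by more than the distance from the reported value to the edge of its counting interval. All 32 came from scaling by total reads, total reads without Rn45s or the upper quartile (log2 shifts of 0.07, 0.085 and 0.043). Hnrnpab, for example, went from -0.438 to -0.353 without Rn45s. The trimmed mean of M-values gave the deposited factors, and the median of ratios shifted values by -0.002, so neither tests the scaling. The share of 280 thus understates the dependence on scaling. Of the named genes beyond counting error, 0 changed direction. Depth limits Srsf12, Snrpn and Hnrnpul1, and counting error is not the replicate error, which is unknown here.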
